A study of Homo sapiens with 4 samples.

Results

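The clade B serpins examined here were 7 genes of 57820 counted in each library. They were SERPINB9, its neighbours SERPINB1 and SERPINB6 in band 6p25, and SERPINB5, SERPINB8, SERPINB2 and SERPINB7 in the 18q21 cluster. SERPINB9 was chosen by its counts, which were 0 in both tKO libraries, and the other members were chosen by family and position. The difference of SERPINB9 between genotypes is therefore given as a description, without a test. Transcripts were counted by stranded RNA-seq of polyadenylated RNA from HAP1 cells, an adherent human cell line with a near-haploid genome that derives from a chronic myeloid leukaemia line. All libraries came from cells without added treatment. The dKO group (n = 2) had RING1A and RING1B inactivated, the paralogous enzymes that place ubiquitin on histone H2A as part of PRC1. The tKO group (n = 2) lacked the same pair of enzymes and also BAP1, a deubiquitinase that removes this mark, so RING1A/B loss was shared by every library. RING1A and BAP1 were interrupted by a STOP cassette carrying an antibiotic resistance gene, and resistant clones were picked, while the RING1B mutant cells were purchased. How many clones stand behind a genotype is not given in the sources used here.

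Serpins inhibit proteases by offering a reactive centre loop as bait, then changing shape and trapping the protease in a covalent complex. Clade B serpins lack a classical secretion signal and act mostly inside cells. SERPINB9 blocks granzyme B, the serine protease that cytotoxic lymphocytes deliver to target cells. It is known from lymphocytes, which it protects from their own granzyme, and from tumour cells. SERPINB1 and SERPINB6 inhibit neutrophil proteases such as cathepsin G. The 18q21 genes are known mainly from epithelia and from myeloid cells.

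SERPINB9 (ENSG00000170542.5, GRCh37 chromosome 6, 2887504 to 2903543, minus strand) has 7 annotated exons, and no other annotated gene overlaps it on either strand. The 250 bases before its start, chr6:2903544-2903793 on the minus strand of GRCh37, are shown because this is the member whose transcript was not found in tKO. The sequence is that of RefSeq (GRCh38.p14) and matched GRCh37 chromosome 6 exactly at 1 place. Capitals mark CG dinucleotides.
SERPINB9 upstream: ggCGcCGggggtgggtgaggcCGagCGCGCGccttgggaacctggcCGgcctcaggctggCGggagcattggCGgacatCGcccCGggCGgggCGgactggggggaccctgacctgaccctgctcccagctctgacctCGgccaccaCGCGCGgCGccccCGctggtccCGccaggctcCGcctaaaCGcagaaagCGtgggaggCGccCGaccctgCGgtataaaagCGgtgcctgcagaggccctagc
This window held 27 CG dinucleotides, against a median of 11 over 35116 promoter windows of the same length, and 17.7% of those windows held at least as many. A TATAA match, searched on both strands, was present in 1 place. It was found in 18.9% of all windows. The half-site GGTCA of the oestrogen response element, also searched on both strands, matched 3 times, and 32.6% of windows held it. The AP-1 motif TGANTCA was not among these letters, and was held by 6.57% of windows.

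A promoter window was found for all 7 members, with several start sites for SERPINB6 and SERPINB7. SERPINB1 had 21 CG dinucleotides in its window, and SERPINB6 had 26, 34, 34 and 3 at its start sites. SERPINB5 had 13, SERPINB8 had 7, SERPINB2 had 0, and SERPINB7 had 1, 0 and 0. The 3 members of 6p25, each of which was transcribed in dKO, thus had CG-rich windows at most of their start sites, whereas the 18q21 members had 13 or fewer. Transcription did not follow these counts within 18q21, where SERPINB8, with 7, had 18 and 21 reads in dKO and SERPINB5, with 13, had 0 and 1. A relation of CG content to transcription was not tested.

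Gene counts summed to between 16054590 and 18455410 per library, and the totals of the tKO libraries were both below those of the dKO libraries. Levels are given as CPM, counts scaled to the library total, and a floor of 3 counts corresponded to between 0.163 and 0.187 CPM. Such floors and the intervals below cover counting error only, since reads copied by PCR are not independent molecules. BAP1 checked the labels. It had 2046 and 2010 counts in dKO and 158 and 107 in tKO, a log2 fold change of -3.77 (limma adjusted p = 0.0065). The transcripts of the other targeted genes remained countable in all libraries, with 12 to 17 counts of RING1 (RING1A) and 1102 to 1561 of RNF2 (RING1B).

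The counts of SERPINB9 were 79 in dKO 1 and 77 in dKO 2, and no read was counted in tKO 1 (0) or tKO 2 (0). As CPM the dKO levels were 4.28 in either library, with exact 95% Poisson intervals of 3.39 to 5.33 and 3.38 to 5.35. For the 0 counts the floor of 3 counts was 0.183 CPM in tKO 1 and 0.187 CPM in tKO 2, and the two-sided Poisson intervals ended higher, at 0.225 and 0.230 CPM. That the groups did not overlap follows from how the gene was chosen, and 15.9% of all tested genes also had both tKO libraries below both dKO libraries. With tKO set at the larger floor of 3 counts per library, the dKO mean of 4.28 CPM was at least 22.9-fold higher. This ratio does not include the counting error of dKO or the wider Poisson limit of tKO. Reads on the opposite strand numbered 0 in both dKO libraries, 0 in tKO 1 and 2 in tKO 2. In bulk RNA, fewer cells with a transcript and less transcript per cell cannot be told apart.

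The fitted log2 fold change of SERPINB9 was -5.24 on the log2-CPM scale with a prior count of 2. This value depends on how zeros are treated, and ran from -9.20 with the edgeR quasi-likelihood fit to -4.72 with unstranded counts, where the 2 opposite-strand reads of tKO 2 enter. It is no bound on the change. The gene passed the filter of CPM above 0.5 in at least 2 libraries only through the dKO pair, so without either dKO library it was not in the fit.

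SERPINB1 (ENSG00000021355.8, chromosome 6, 2832566 to 2842193, minus strand), the inhibitor of neutrophil elastase, cathepsin G and proteinase 3, had 415 and 515 counts in dKO and 337 and 340 in tKO. The dKO mean was 25.6 CPM ± 4.34 (SD, n = 2), and the tKO mean was 20.9 CPM ± 0.456 (SD, n = 2). Both tKO libraries lay below both dKO libraries, but dKO 1, at 22.5 CPM, was closer to the tKO values of 20.5 and 21.2 than to dKO 2 at 28.6. The log2 fold change of -0.28 had a 95% interval of -0.66 to 0.11 and did not pass the test (limma adjusted p = 0.996).

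SERPINB6 (ENSG00000124570.13, chromosome 6, 2948393 to 2972399, minus strand), which inhibits cathepsin G and is needed for hearing, was the member with the most counts. It had 1694 and 1707 counts in dKO, 1301 in tKO 1 and 1523 in tKO 2. As CPM these were 91.8, 94.9, 79.3 and 94.9, so tKO 2 lay within the range of dKO and tKO 1 below it. The log2 fold change was -0.10, with a 95% interval of -0.38 to 0.17 (limma adjusted p = 0.996). These intervals of SERPINB1 and SERPINB6 do not reach a 2-fold change in either direction. Their width rests on 2 counted libraries per genotype and on a spread that limma moderated towards that of genes of similar level.

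SERPINB8 (ENSG00000166401.9, chromosome 18, 61637263 to 61687013, plus strand), an inhibitor of the proprotein convertase furin, was the 18q21 member with a measurable level. It had 18 and 21 counts in dKO, and 22 and 8 counts in the tKO pair. The tKO libraries stood on either side of the dKO pair, at 1.34 and 0.498 CPM, and their Poisson intervals of 0.840 to 2.03 and 0.215 to 0.982 CPM overlapped. The log2 fold change of -0.32 had a 95% interval of -1.49 to 0.85 (limma adjusted p = 0.996) and thus included a 2-fold fall but not a 2-fold rise. HMSD overlaps SERPINB8 on the same strand, and reads that fit both genes are not counted for either.

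The remaining members were at or near 0 in every library. SERPINB5 (ENSG00000206075.9, chromosome 18, 61144191 to 61172318), which encodes maspin, a serpin without protease inhibition, had 1 count in dKO 2 and 0 in the others. SERPINB2 (ENSG00000197632.4, chromosome 18, 61538926 to 61571122), the inhibitor of urokinase and tissue plasminogen activator, had 0 counts in all 4 libraries. SERPINB7 (ENSG00000166396.8, chromosome 18, 61420169 to 61472610), known from the epidermis and the kidney, also had 0 in all 4. None of these 3 genes passed the filter, and no fold change is given for them. The other coding clade B genes of 18q21, SERPINB3, SERPINB4, SERPINB10, SERPINB11, SERPINB12 and SERPINB13, had 0 counts throughout, as had the SERPINB9P1 pseudogene transcript beside SERPINB9.

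**Figure D1:**
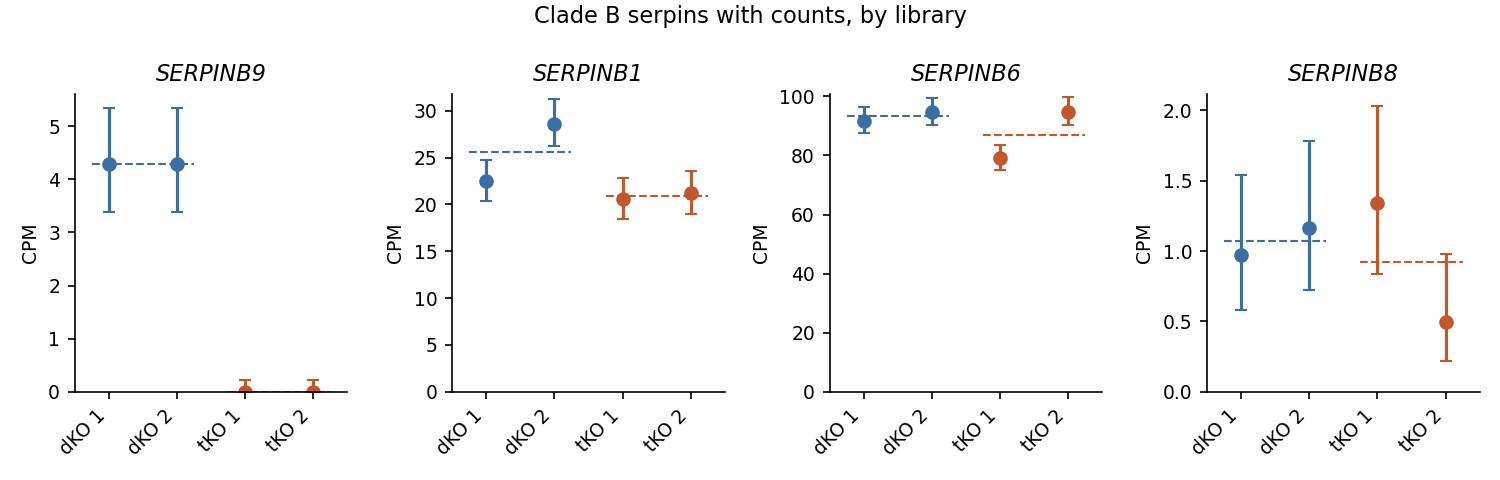
CPM of the 4 clade B serpins with counts, per library (blue dKO, orange tKO; bars are exact 95% Poisson intervals of counting error, dashed lines group means, and each vertical axis starts at 0). SERPINB9 is at 4.28 CPM in both dKO libraries and at 0 in both tKO libraries, while SERPINB1, SERPINB6 and SERPINB8 are present in all 4.

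Of the 7 members, 4 were tested. Apart from SERPINB9, 0 of the 3 tested members were called at an adjusted p below 0.05 with a change of more than 1 on the log2 scale, and 0 had an unadjusted p below 0.05. With this rule limma called 0.0132% of the 15136 tested genes, and 3.55% had an unadjusted p below 0.05. The edgeR quasi-likelihood test and DESeq2 also called 0 of the 3. Both tKO libraries lay below both dKO libraries in 1 of the 3, SERPINB1, and above in 0, whereas 15.9% of tested genes lay below and 15.8% above. The median log2 fold change of the 3 was -0.28, and that of all tested genes was -0.00137.

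Levels were compared between members per kilobase of annotated exon. In dKO the order was SERPINB1 at 8.39 CPM per kb, SERPINB6 at 7.07, SERPINB9 at 1.03 and SERPINB8 at 0.186. The dKO libraries of SERPINB1 and SERPINB6 did not overlap on this scale, while in tKO SERPINB1, at 6.74 and 6.95 CPM per kb, lay between the SERPINB6 libraries. The annotated exons of SERPINB6 add up to 13201 bases over many isoforms, against 3047 for SERPINB1 and 4143 for SERPINB9, so its level per kb is the most sensitive to the annotation. In dKO 63.1% of tested genes with a length had a lower level per kb than SERPINB1, 58.3% than SERPINB6, 19.1% than SERPINB9 and 3.96% than SERPINB8.

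The genes around SERPINB9 were examined next, to see whether the 0 counts extended to its surroundings. Of 32 genes with any part within 500 kb, 16 were tested and 9 had 0 counts in all libraries. Their log2 fold changes ran from -0.94 to 0.81, and the median difference from the dKO mean, in log2-CPM, was -0.06 in tKO 1 and 0.02 in tKO 2. None of the 16 was called in limma, in edgeR or in DESeq2 (smallest limma adjusted p = 0.996). Limma called 0.0132% of all tested genes, so 0 of 16 is near that share. Relative to the start of SERPINB9, SERPINB1 starts at -61.35 kb and SERPINB6 at 68.9 kb, and both were transcribed in each tKO library as described above. Between SERPINB1 and SERPINB6, the annotated genes other than SERPINB9 had 0 counts in every library. Those nearest surroundings could therefore not be compared. TUBB2B, a beta-tubulin gene, had a log2 fold change of -0.20, WRNIP1, which encodes a partner of the Werner helicase, of 0.09, and RIPK1, a kinase of the death receptor pathway, of -0.07. In 4 of the 16 both tKO libraries lay below dKO, and in 1 above. Over all tested genes 15.9% lay below and 15.8% above, and 16 genes are too few to tell these counts from those shares. The 1 gene above, FAM136BP, a pseudogene named after its values were seen, had 22 and 18 counts in dKO and 31 and 34 in tKO. Its log2 fold change of 0.81 had an unadjusted limma p of 0.038 (adjusted p = 0.996). Reads that matched this pseudogene and another place equally well were not counted, so its counts are uncertain.

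**Figure D2:**
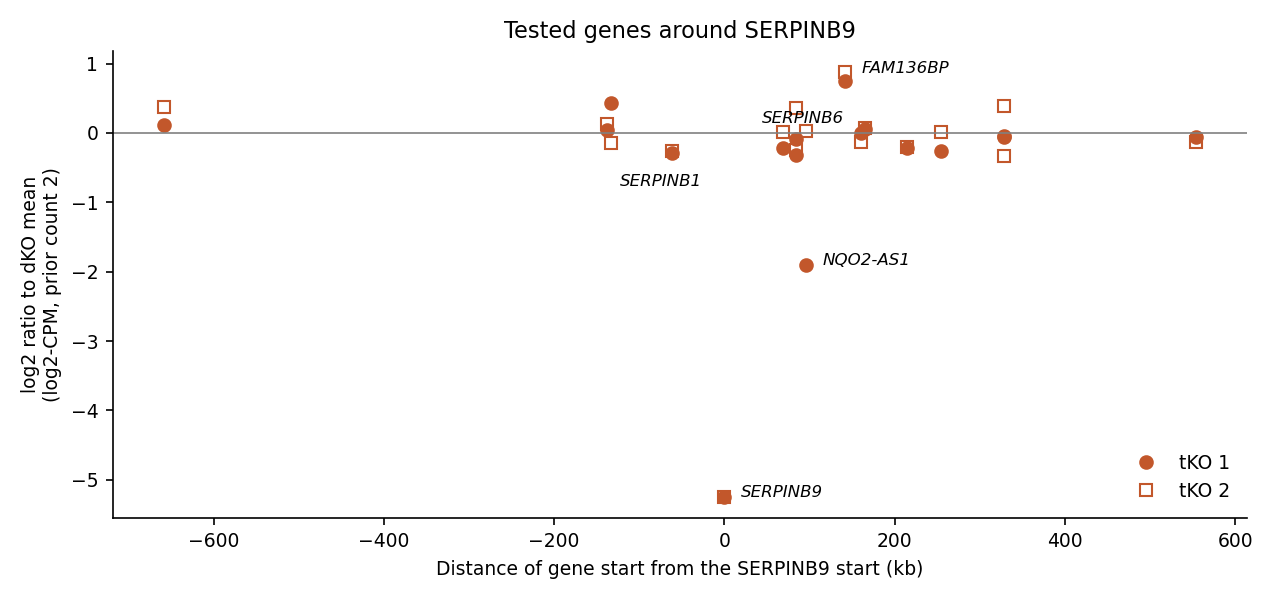
Log2 ratio of each tKO library to the dKO mean (log2-CPM, prior count of 2) for SERPINB9 and 16 tested genes around it. The 16 genes have any part within 500 kb, and are placed by the distance of the gene start from that of SERPINB9 in kb. The starts of GMDS-DT, at -658 kb, and SLC22A23, at 554 kb, lie farther out. Both points of SERPINB9 are at -5.24, and those of SERPINB1 and SERPINB6 lie between -0.29 and 0.02. The low point of NQO2-AS1 in tKO 1, at -1.90, rests on 1 count.

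The pattern of SERPINB9 over the 4 libraries was then set against all tested genes. Among 12161 genes with at least 50 counts in each dKO library, SERPINB9 was the 1 gene with at most 2 counts in each tKO library, and 0 genes showed the reverse. SERPINB9 met this cut by the way it was chosen, and RIMBP2, with 46, 57, 0 and 2 counts, lay just outside it, so the count is a description only. Likeness was measured as the root mean square distance of log2-CPM values, each gene centred on its own mean, over the 4 libraries. The nearest gene was RIMBP2, which encodes a scaffold of presynaptic calcium channels, at a distance of 0.677. BAP1 itself came next at 0.759. ZNF429, a zinc finger gene of chromosome 19, followed at 1.11, with 47 and 51 counts in dKO and 6 and 0 in tKO. IRAK3, an inhibitor of Toll-like receptor signalling, was at 1.29 with 14, 16, 1 and 0 counts. SPARC, a secreted matrix glycoprotein, was at 1.32 with 227, 237, 50 and 9 counts. These genes lie on chromosomes 12, 3, 19, 12 and 5, and none of them on chromosome 6. The 5 genes were picked for the same contrast as SERPINB9, so no test is given for them.

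**Figure D3:**
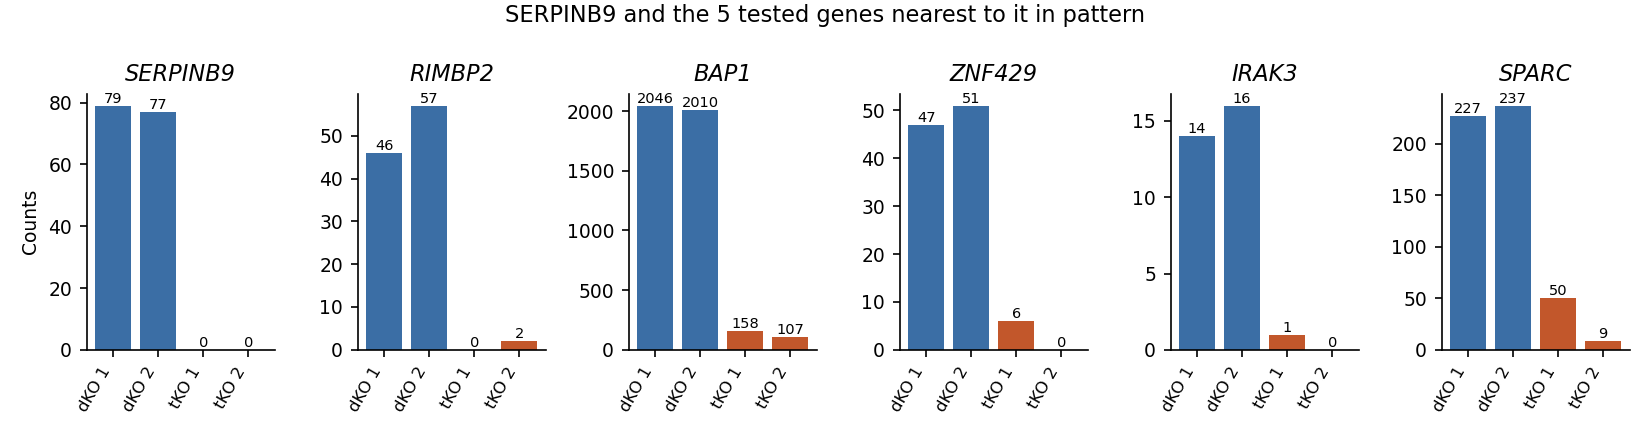
Counts per library (blue dKO, orange tKO; each vertical axis starts at 0 and has its own scale) of SERPINB9 and of the 5 tested genes nearest to it in pattern, in order of distance. SERPINB9 has 79, 77, 0 and 0 counts; BAP1, at 2046, 2010, 158 and 107, has the highest counts, and IRAK3 the lowest.

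Proteases that clade B serpins are known to bind were mostly not transcribed. Granzyme B (GZMB), the main target of SERPINB9, had 0 counts in every library, as had GZMA, GZMH, GZMK, cathepsin G (CTSG) and neutrophil elastase (ELANE). Of 22 proteases listed, 10 had 0 counts throughout and 7 were tested, of which 0 were called by limma, edgeR or DESeq2 and 1 had an unadjusted p below 0.05. Over all tested genes limma called 0.0132%, and 3.55% had an unadjusted p below 0.05. The median log2 fold change of the 7 was -0.17. The 4 with the highest level were the lysosomal cathepsins CTSL and CTSV, FURIN, the target of SERPINB8, and CASP8, the initiator caspase of death receptors. Their log2 fold changes were -0.06, -0.17, -0.08 and -0.56.

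CASP8 had 426 and 513 counts in dKO and 271 and 293 in tKO, or 25.8 ± 3.84 CPM (SD, n = 2) against 17.4 ± 1.23 CPM (SD, n = 2). Both tKO libraries lay below both dKO libraries, its unadjusted limma p was 0.0118 and its adjusted p was 0.996. Of the 7 tested proteases 4 lay below in this way and 1 above. Over all tested genes 15.9% lay below and 15.8% above, and a difference from those shares was not tested. Proteinase 3 (PRTN3), a target of SERPINB1 named after its values were seen, had 19 and 29 counts in dKO, 14 in tKO 1 and 2 in tKO 2. Both tKO libraries lay below both dKO libraries, but they differed more from each other than tKO 1 did from dKO 1. The limma adjusted p was 0.996. Urokinase (PLAU), the target of SERPINB2 and likewise named afterwards, had between 100 and 113 counts per library, with a log2 fold change of 0.14.

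Of 21 serpins of other clades, 10 had 0 counts throughout and 4 were tested. None of the 4 was called by limma, edgeR or DESeq2, and limma called 0.0132% of all tested genes. The 1 with an unadjusted limma p below 0.05, SERPINF1, passed the filter only through its dKO libraries. That count is therefore a description, and is not weighed against the 3.55% of all tested genes with such a p. Their median log2 fold change was -0.13. SERPINH1, the collagen chaperone HSP47, had 2247 and 1611 counts in dKO and 1583 and 1315 in tKO. SERPINE2, which inhibits thrombin and urokinase, had 372 and 507 counts in dKO and 379 and 380 in tKO. SERPINI1, or neuroserpin, had 52, 66, 47 and 86 counts. In each of these 3 genes the groups overlapped. Over all tested genes, 15.9% had both tKO libraries below both dKO libraries and 15.8% had both above. SERPINF1, the secreted factor PEDF, had 34 and 29 counts in dKO and 7 and 3 in tKO, and the groups did not overlap. Its log2 fold change of -2.18 had a 95% interval of -3.21 to -1.14, an unadjusted limma p of 0.00177 and an adjusted p of 0.744. On the opposite strand of SERPINF1 the counts were 52, 43, 58 and 45, so unstranded counts gave a log2 fold change of -0.32. SERPINF1 passed the filter only through the dKO pair, at 1.84 and 1.61 CPM against 0.426 and 0.187 in tKO. Its interval, its p and its lack of overlap are therefore a description, and the fits without either dKO library did not include it. Without tKO 1 its log2 fold change was -2.62, and without tKO 2 it was -1.75.

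Factors known to act on SERPINB9 transcription, which are members of the NF-kB and AP-1 families and the oestrogen receptor, numbered 13, of which 12 were tested. None was called by limma, edgeR or DESeq2, none had an unadjusted p below 0.05, and their median log2 fold change was -0.000594. Among all tested genes limma called 0.0132%, and 3.55% had an unadjusted p below 0.05, so counts of 0 are near those shares. RELA, NFKB1, NFKB2 and REL, the 4 with the highest level, had log2 fold changes of 0.19, 0.18, -0.16 and -0.00065. Each of these 4 overlapped between the genotypes. Of the 12 tested factors, 2 had both tKO libraries below both dKO libraries and 1 had both above. Over all tested genes 15.9% lay below and 15.8% above, and 12 genes are too few to tell these counts from those shares. ESR1, the oestrogen receptor alpha gene, had 1 count or fewer in every library and was not tested.

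**Figure D4:**
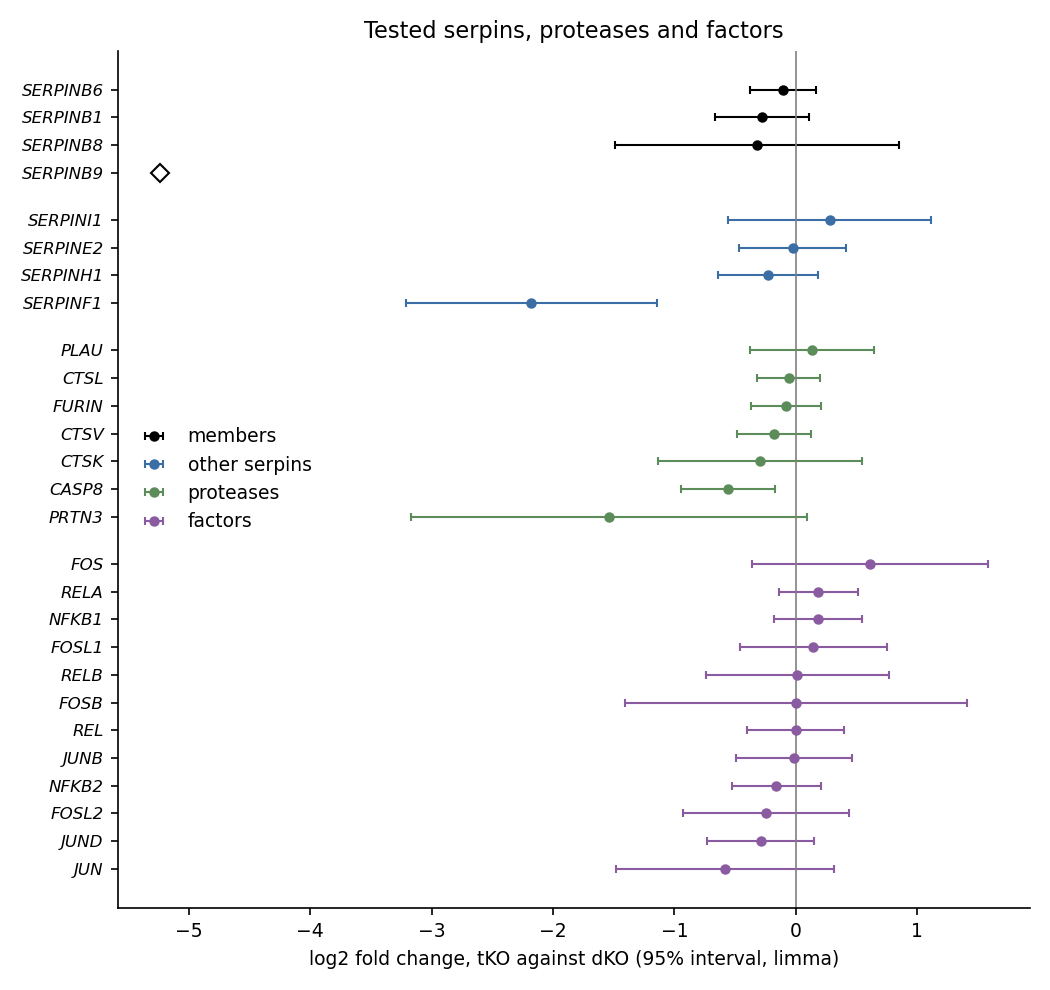
Log2 fold change of tKO against dKO with its 95% interval from limma for the tested members, serpins of other clades, proteases and factors. The open diamond is SERPINB9 at -5.24, drawn without an interval because it was chosen on this contrast. Besides it, the intervals of SERPINF1 and CASP8 lie below 0. Neither gene passed the adjusted threshold, and SERPINF1 entered the fit only through its dKO libraries.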

How the data were processed

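Gene counts from 2 dKO and 2 tKO libraries of HAP1 cells were used, grouped by the sample titles. Adapters were trimmed by the authors (Trim Galore 0.4.4, cutadapt 1.12). They removed rRNA reads with bowtie (1.2), mapped to GRCh37/hg19 with STAR (2.5.2b) and deposited raw counts of uniquely mapped reads per GENCODE 19 gene, without normalisation. Reads shared between near-identical copies were not counted. The column of reads antisense to the gene, the orientation of this kit, was used here.

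Symbols, positions and exon lengths came from GENCODE 44 lifted to GRCh37. Genes with CPM above 0.5 in at least 2 libraries (15136) were fitted with limma (3.58.1, R 4.3.3) on TMM-scaled log2-CPM from edgeR (4.0.16; prior count of 2, mean-variance trend), with genotype as the only term and Benjamini-Hochberg adjustment over all tested genes. Calls needed an adjusted p below 0.05 and a log2 fold change beyond 1 in either direction. CPM values printed are per library total. Intervals of fold changes are limma's 95% intervals. The fit was tested on simulated data.

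Members, lists and tests were chosen with earlier results of these data known. Named were the members, the 4 genes of highest mean CPM among the tested genes of each list, and genes with any part within 500 kb. The 5 genes nearest to SERPINB9 in pattern, and the targeted genes BAP1, RING1 and RNF2, were named too. So were some listed genes that were not tested and some cell type markers. PRTN3, PLAU, FAM136BP and SERPINE3 were named after their values were seen. The study describes its RNA replicates as independent, but nothing says whether they came from separate clones. The p-values therefore refer to these libraries and not to clones. In limma the spread of each gene was moderated towards that of genes of similar level, so it is not that of its own libraries alone. Other settings tried were DESeq2 (1.42.0), the quasi-likelihood test of edgeR, voom weights, RLE size factors, no filter, CPM above 1, a prior count of 0.25, unstranded counts, a replicate block and leaving out each library. Protein sequences were not used here.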

Additional observations from a re-analysis of the deposited data

How the results depend on the processing

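With all libraries kept, the 3 tested members other than SERPINB9 gave 0 calls under every setting, and so did the tested genes of the other lists. The latter numbered 37 in the main fit and from 31 with CPM above 1 to 57 with no filter. Fits without 1 library leave a lone library in 1 genotype, assumed to vary like the other pair, so their calls are not given. SERPINF1 did not pass the filter in the fits without a dKO library. Without tKO 1 the log2 fold changes were -2.62 for SERPINF1 and -2.56 for PRTN3, and without tKO 2 they were -1.75 and -0.52. Directions of small differences were not stable. Leaving out 1 library gave log2 fold changes from -0.22 to 0.015 for SERPINB6, -0.96 to 0.32 for SERPINB8, -0.26 to 0.21 for SERPINE2, -0.46 to 0.00025 for SERPINH1, -0.15 to 0.71 for SERPINI1, -0.17 to 0.0078 for FURIN, -0.15 to 0.15 for REL and -0.23 to 0.085 for RIPK1. REL was at 0.0047 with edgeR and 0.0050 with DESeq2, and PLAU at -0.050 with unstranded counts; the cause was not tested. SERPINB1 stayed negative, from -0.44 to -0.11 without 1 library. Over all genes DESeq2 called 25, the replicate block 13 and no filter 0, against 2. Same-numbered libraries had a correlation of 0.0581 in their deviations from the group means over 15136 genes, so the numbers were not taken as pairs; in this balanced design the replicate block cannot move a log2 fold change (SERPINB1 -0.28 in either fit), and with it 0 members other than SERPINB9 were called. Members below about 3 counts per library cannot be compared at this depth.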

Other observations

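Markers of leukocytes and of epithelia, the tissues from which most clade B serpins are known, were largely missing from these cells. Of 10 leukocyte markers 4 had 0 counts in all libraries and 1, CD8A, was tested, with 31, 42, 37 and 10 counts. The summed level of the list was 1.95 and 3.06 CPM in dKO and 2.62 and 0.872 CPM in tKO. PTPRC, which encodes CD45 and defines leukocytes, had 1 count in tKO 2 and 0 elsewhere. Of 10 epithelial markers 5, among them EPCAM and KRT5, had 0 counts throughout, and KRT18 and KRT8 were tested. KRT18, a keratin of simple epithelia, had 410 and 411 counts in dKO and 370 and 299 in tKO, and the summed level of the list was 23.2 and 24.1 CPM in dKO and 23.5 and 19.3 CPM in tKO.

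SERPINE3, a serpin of another clade named after its values were seen, had 1, 0, 1 and 5 counts on its own strand. On the opposite strand it had 75, 47, 67 and 61, so a count without strand would have placed it among the transcribed serpins.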
